A study of Mus musculus with 39 samples.

Results

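The 10 genes described here encode phosphodiesterases that hydrolyse cAMP: Pde7b, Pde10a, Pde7a, Pde8a, Pde8b, Pde4a, Pde4b, Pde4d, Pde3b and Pde1c. They were chosen by name from a list of 22180 genes whose probe sets carry a single symbol, and in part from their measured values, since Pde7b and Pde10a were already known as rising strongly in 2-week testis of the prKO and srKO lines. All 10 were measured, and all 10 passed the filter on low values through WT arrays alone, as did 19007 genes in all through any of the groups. RNA of whole mouse testis was hybridised to Affymetrix arrays, 1 array per sample, and the values are log2 intensities, so a difference of 1 is a 2-fold change. Each knockout line carried floxed Prkar1a (fl/fl), the gene of the type I alpha regulatory subunit of protein kinase A (PKA), together with a Cre transgene. In prKO mice Sf1:Cre acts in the shared precursors of the somatic gonad and adrenal cortex, in srKO mice Amh:Cre acts in Sertoli cells, and in lrKO mice Cyp11a1:Cre acts in steroidogenic cells, which in the testis are Leydig cells. WT mice were littermates. At 2 weeks there were 8 WT, 4 prKO, 4 srKO and 4 lrKO arrays, and at 2 months 8 WT, 3 prKO, 4 srKO and 4 lrKO arrays. Sample titles call the arrays of a group biological replicates.

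cAMP is made by adenylyl cyclases downstream of hormone receptors, in the testis chiefly the LH receptor of Leydig cells and the FSH receptor of Sertoli cells. It releases the catalytic subunits of PKA from regulatory subunits such as the product of Prkar1a, and phosphodiesterases end the signal by hydrolysing cAMP. The PDE4, PDE7 and PDE8 families are specific for cAMP, PDE3 enzymes hydrolyse cAMP and are inhibited by cGMP, and PDE1 and PDE10 enzymes hydrolyse both nucleotides, PDE1 under the control of calcium and calmodulin. Genes of several families are known to respond to cAMP itself, and PDE8 and PDE4 enzymes are known to restrain steroid production in Leydig cells.

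RefSeq promoter windows on build GRCm38.p6 were at hand for 8 of the 10 genes, 20 windows in all. The 250 bases before the annotated start are shown for Pde7b and Pde10a, whose values differed most between lines at 2 weeks, and for 1 window of Pde4b that holds a core cAMP response element in capitals (CGTCA, the reverse complement of TGACG). All are written 5′ to 3′ on the strand of the gene. The Pde7b window lies at chr10:20548329-20548578 on the minus strand, the Pde10a windows at chr17:8801495-8801744 and chr17:8849735-8849984 on the plus strand, and the Pde4b window at chr4:102421305-102421554 on the plus strand.
Pde7b: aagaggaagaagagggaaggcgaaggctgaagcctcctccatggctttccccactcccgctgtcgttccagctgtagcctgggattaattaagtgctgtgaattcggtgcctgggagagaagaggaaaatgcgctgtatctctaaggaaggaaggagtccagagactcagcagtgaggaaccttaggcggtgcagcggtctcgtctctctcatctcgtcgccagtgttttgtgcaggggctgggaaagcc
Pde10a, window 1: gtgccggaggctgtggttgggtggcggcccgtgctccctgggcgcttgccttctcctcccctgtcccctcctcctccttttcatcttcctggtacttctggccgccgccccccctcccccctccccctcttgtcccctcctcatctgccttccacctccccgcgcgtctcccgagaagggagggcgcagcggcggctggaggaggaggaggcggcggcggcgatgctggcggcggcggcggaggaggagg
Pde10a, window 2: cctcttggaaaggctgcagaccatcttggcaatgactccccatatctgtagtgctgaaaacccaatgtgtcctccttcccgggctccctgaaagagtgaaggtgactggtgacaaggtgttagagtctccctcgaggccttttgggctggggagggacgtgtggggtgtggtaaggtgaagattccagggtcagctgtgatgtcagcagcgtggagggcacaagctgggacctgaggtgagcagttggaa
Pde4b, window 1: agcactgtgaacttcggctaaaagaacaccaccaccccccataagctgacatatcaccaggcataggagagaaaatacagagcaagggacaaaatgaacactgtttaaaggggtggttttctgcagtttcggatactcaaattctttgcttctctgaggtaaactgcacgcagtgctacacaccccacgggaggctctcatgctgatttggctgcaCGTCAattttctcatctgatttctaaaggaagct

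These windows differ in base composition. The Pde7b window has 55.2% G and C and the Pde10a windows 72.8% and 56%, whereas the Pde4b window has 46%, against a median of 52.4% over all 32851 windows of the same length. The full cAMP response element TGACGTCA, searched on both strands, was in 0 of the 20 windows and in 1.55% of all windows. Its core TGACG, which the full element contains, was in 3 of 20 windows, 1 each of Pde8a, Pde4a and Pde4b, and in 17.8% of all windows. In Pde4b it lies 34 bases before the start, in Pde4a 50 bases and in Pde8a 84 bases. The letters AAGGTCA, a nuclear receptor site bound by SF1, were in 0 of the 20 windows and in 4.08% of all windows. These matches describe letters within short windows only.

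The arrays were checked on Prkar1a and on cell type markers. Prkar1a lay between 8.84 and 9.14 in WT at 2 weeks, between 8.04 and 8.33 in prKO and between 8.36 and 8.64 in srKO, with no overlap. At 2 months it lay between 8.36 and 8.66 in prKO and between 8.61 and 9.002 in WT, which overlap, and 3 of 4 srKO arrays were above every WT array (8.98 to 9.18 over all 4). Arrays labelled lrKO were within the WT range at both ages (8.98 to 9.08 and 8.86 to 8.90), so whole-testis RNA did not show the deletion in them, and the names lrKO, and srKO at 2 months, stand here for arrays so labelled; where the probes lie relative to the floxed part is not given in the sources used here. Sertoli, Leydig and germ cell markers were present as in testis, and Tnp1, a spermatid gene, averaged 12.1 in WT at 2 months; the label on RNA extraction names adrenal glands. Adam7, an epididymis gene, stood at 11.7 in prKO replicate 1 at 2 months and at 7.08 in prKO replicate 3 at 2 weeks, against at most 6.40 on every other array. Values of the 10 genes in prKO whose call changes without these arrays are given both ways. In bulk tissue, fewer cells of a type and less RNA per cell cannot be told apart.

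**Figure D1:**
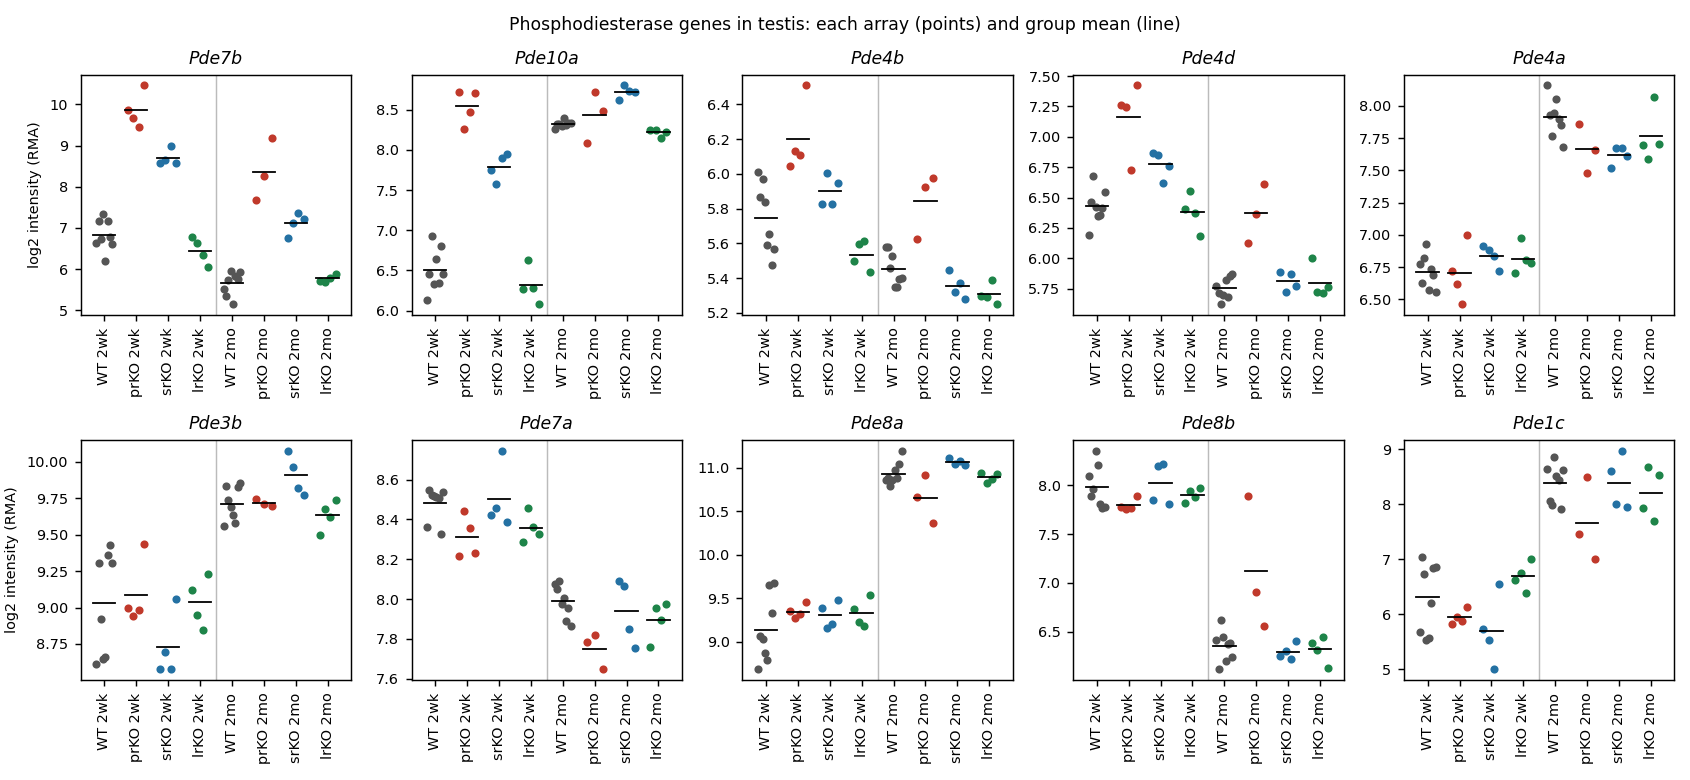
Log2 intensity (vertical axis, a separate range for each gene) of the 10 genes in 8 groups along the horizontal axis, with 1 point per array and a line at each group mean. Pde7b in prKO and srKO lies above every WT array at both ages, whereas the WT mean of Pde10a rises from 6.51 to 8.33 between the ages, where the 4 groups lie close together.

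In wild-type testis all 10 genes differed between the ages, 5 being higher and 5 lower at 2 months (limma with Benjamini-Hochberg adjustment; 81.6% of all genes tested passed the same threshold, an adjusted p of 0.05). The median over the 10 was 0.20 on the log2 scale against -0.23 over all genes. Pde1c rose by 2.07 ± 0.24 (adjusted p = 6.19e-10), where ± is the standard error here and below. Pde8a rose by 1.80 ± 0.10 (adjusted p = 8.23e-18), Pde4a by 1.20 ± 0.08 (7.77e-17) and Pde3b by 0.68 ± 0.11 (3.8e-07). Pde10a rose by 1.82 ± 0.09, given without a p since its 2-week WT values entered the choice of the gene. For each of these 5 genes all 8 arrays at 2 months lay above all 8 at 2 weeks. Pde8b fell by 1.63 ± 0.11 (adjusted p = 1.2e-15), Pde4d by 0.67 ± 0.08 (9.27e-10), Pde7a by 0.49 ± 0.06 (7.01e-10) and Pde4b by 0.29 ± 0.07 (3.72e-04). Pde7b fell by 1.17 ± 0.17, without a p for the same reason as Pde10a. Both genes are in the count of 10. The groups did not overlap except in Pde4b, where 5 of 8 arrays at 2 months lay below all arrays at 2 weeks. How many of all genes separate the ages without overlap was not counted, so nothing is read from this. Families split: Pde8a rose while Pde8b fell, and Pde4a rose while Pde4b and Pde4d fell. Between these ages spermatids appear in the testis, and 5 of 6 tested spermatid markers rose while 7 of 8 Sertoli markers and all 4 endothelial markers fell; their part in these changes was not tested. The fall of Pde7a was 0.11 when its 2 probe sets were averaged, and that of Pde4b was 0.18 after centring each array on its median.

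Pde7b encodes a cAMP-specific enzyme of the PDE7 family. At 2 weeks its 8 WT arrays ranged from 6.19 to 7.33 with a median of 6.75. The prKO arrays read 9.87, 9.66, 9.46 and 10.46, the srKO arrays 8.58, 8.66, 8.98 and 8.57, and the lrKO arrays 6.78, 6.62, 6.33 and 6.04. All prKO arrays were thus above all srKO arrays, which were above all WT arrays, while the lrKO arrays overlapped WT. The differences from WT were 3.04 ± 0.20 (8.21-fold) in prKO and 1.87 ± 0.20 (3.67-fold) in srKO; since they helped to choose the gene, they are given without a test. In lrKO the difference was -0.38 ± 0.20, with a 95% interval from -0.79 to 0.04. Its WT arrays also entered the choice of the gene, so no test is given for it either.

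At 2 months, in other animals, the order of the groups in Pde7b was the same at lower levels. WT ranged from 5.15 to 5.94, prKO read 7.67, 8.25 and 9.17, srKO 6.76, 7.11, 7.37 and 7.21, and lrKO 5.72, 5.68, 5.79 and 5.89. The knockout groups prKO and srKO again did not overlap WT or each other. Pde7b was higher than in WT by 2.71 ± 0.22 in prKO (6.55-fold, adjusted p = 1.99e-08) and by 1.46 ± 0.20 in srKO (2.75-fold, adjusted p = 1.79e-05). In lrKO the difference was 0.12 ± 0.20, with a 95% interval from -0.30 to 0.53 (adjusted p = 0.93). prKO exceeded srKO by 1.25 ± 0.25 at 2 months (adjusted p = 0.00162, but 0.0551 when only these 7 arrays were fitted) and by 1.16 ± 0.23 at 2 weeks, which is given without a test since those arrays supplied the values that chose the gene. From 2 weeks to 2 months the prKO effect moved by -0.33 ± 0.31 (95% interval -0.95 to 0.30) and the srKO effect by -0.41 ± 0.29 (-1.01 to 0.18), again without a test because the 2-week values enter them.

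Pde10a encodes a dual cAMP and cGMP phosphodiesterase best known from striatal neurons. At 2 weeks WT ranged from 6.13 to 6.93, prKO read 8.72, 8.26, 8.47 and 8.71, srKO 7.75, 7.58, 7.90 and 7.95, and lrKO 6.27, 6.63, 6.28 and 6.08. As in Pde7b, prKO lay above srKO and srKO above WT with no overlap, and lrKO overlapped WT. The differences from WT were 2.03 ± 0.14 (4.09-fold) in prKO and 1.28 ± 0.14 (2.43-fold) in srKO, again without a test. The lrKO difference was -0.19 ± 0.14 (95% interval -0.48 to 0.09), given without a test since its WT arrays entered the choice of the gene. prKO exceeded srKO by 0.75 ± 0.16, also without a test.

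At 2 months the groups lay close together in Pde10a. WT was tightly grouped between 8.26 and 8.40, prKO read 8.09, 8.72 and 8.48, srKO 8.62, 8.80, 8.73 and 8.73, and lrKO 8.24, 8.25, 8.15 and 8.22. All srKO arrays were above all WT arrays, whereas prKO arrays lay on both sides of WT. The srKO difference was 0.40 ± 0.08 (1.31-fold, adjusted p = 0.00105). The prKO difference was 0.10 ± 0.09 (95% interval -0.08 to 0.29, adjusted p = 0.359); without prKO replicate 1, the array highest in Adam7, it was 0.27 (adjusted p = 0.00501). prKO was below srKO by 0.29 ± 0.10 (adjusted p = 0.0392), a call that ended without that replicate (-0.12, adjusted p = 0.285), without prKO replicate 3 or any 1 of srKO replicates 2 to 4 (0.073 to 0.0801), and in a fit of all 8 groups (0.128). Against lrKO, prKO was at 0.21 ± 0.10 (adjusted p = 0.0934), and at 0.38 (adjusted p = 7.28e-04) without replicate 1. The prKO effect changed by -1.93 ± 0.17 from 2 weeks to 2 months, and the srKO effect by -0.89 ± 0.16. These 2 values carry the 2-week differences that chose the gene, so no test is given for them here. The lrKO difference from WT was -0.11 ± 0.08 (95% interval -0.28 to 0.06, adjusted p = 0.787).

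**Figure D2:**
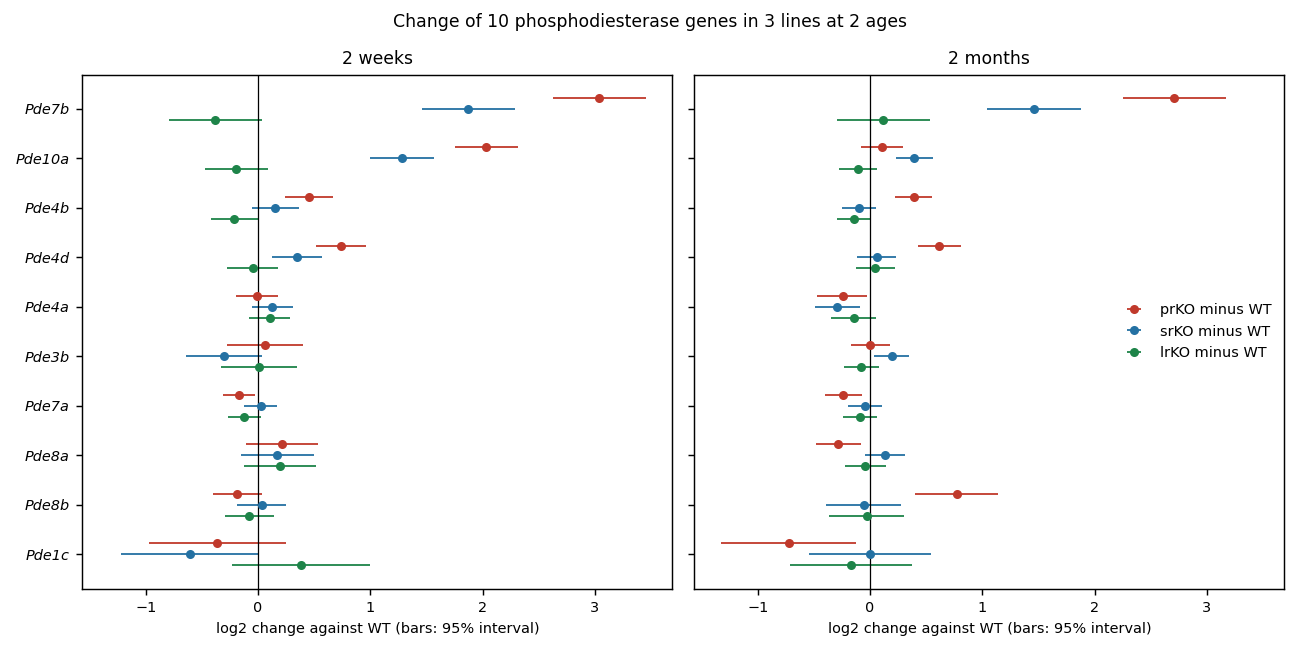
Log2 change against WT (horizontal axis, bars are 95% intervals) for each gene at 2 weeks and at 2 months, in prKO, srKO and lrKO. Pde7b keeps changes of 2.71 and 1.46 in prKO and srKO at 2 months, Pde10a falls to 0.10 and 0.40, and every lrKO value lies within 0.40 of 0.

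The PDE4 family supplies the main cAMP-specific enzymes of many cells, and 2 of its 3 genes among the 10 were higher in prKO. Of all genes tested 10.5% passed there at 2 weeks and 48.4% at 2 months. Another PDE4 gene, Pde4c, is not among the 10. It averaged 5.82 in WT and 5.71 in prKO at 2 weeks, and 5.38 and 5.40 at 2 months. Pde4d at 2 weeks ranged from 6.19 to 6.67 in WT and read 7.26, 7.25, 6.73 and 7.42 in prKO, 6.86, 6.85, 6.62 and 6.76 in srKO, and 6.41, 6.55, 6.37 and 6.18 in lrKO. Every prKO array was above every WT array, as were 3 of 4 srKO arrays, and lrKO overlapped WT. The differences were 0.74 ± 0.11 in prKO and 0.35 ± 0.11 in srKO. At 2 months Pde4d ranged from 5.62 to 5.87 in WT and read 6.13, 6.37 and 6.61 in prKO, where it was higher by 0.62 ± 0.09 (adjusted p = 1.55e-05). In srKO it differed by 0.06 ± 0.08 (adjusted p = 0.661), and prKO exceeded srKO by 0.56 ± 0.10 (adjusted p = 9.69e-04). At 2 weeks prKO exceeded srKO by 0.39 ± 0.12, and by 0.54 without the 2-week array high in Adam7, both without a test.

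Pde4b, the family member best known from immune cells, moved less. At 2 weeks WT ranged from 5.47 to 6.01, prKO read 6.05, 6.13, 6.11 and 6.51, srKO 5.82, 6.00, 5.83 and 5.95, and lrKO 5.497, 5.59, 5.62 and 5.43. All prKO arrays were above all WT arrays, by 0.45 ± 0.10 on average, but WT itself was split: replicates 1 to 4 lay between 5.84 and 6.01 and replicates 5 to 8 between 5.47 and 5.66. Against WT replicates 1 to 4 alone the difference was 0.28. At 2 months prKO read 5.63, 5.92 and 5.98 against 5.35 to 5.58 in WT, higher by 0.39 ± 0.08 (adjusted p = 4.39e-04), and WT replicates 1 to 4 (5.46 to 5.58) again lay above replicates 5 to 8 (5.35 to 5.40). Pde4b in srKO differed from WT by -0.10 ± 0.07 (adjusted p = 0.35), and prKO exceeded srKO by 0.49 ± 0.09 (adjusted p = 9.28e-04). Of 5 macrophage markers 3 were higher in prKO at 2 weeks and 5 at 2 months, where 10.5% and 48.4% of all genes tested passed. In srKO 3 of 5 were higher at 2 months, where 25.4% of all genes passed. At 2 months their mean departure from WT lay between 0.67 and 1.22 in prKO, 0.47 and 0.94 in srKO, and -0.06 and 0.07 in WT. The part of these markers in the Pde4b values was not tested.

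Pde4a showed no comparable rise. At 2 months it ranged from 7.68 to 8.16 in WT and read 7.86, 7.48 and 7.66 in prKO, 7.51, 7.68, 7.67 and 7.61 in srKO, and 7.70, 7.59, 8.07 and 7.70 in lrKO. It was lower in srKO by 0.29 ± 0.10 (adjusted p = 0.0313), with all 4 srKO arrays below the lowest WT array. That call ended against either set of 4 WT replicates (adjusted p = 0.0507 and 0.138) and without WT replicate 1 or 5 or srKO replicate 1, 2 or 4 (0.0539 to 0.102). In prKO the difference was -0.25 ± 0.11 (adjusted p = 0.0638); without replicate 1, the array highest in Adam7, it passed at -0.34 (adjusted p = 0.0235). The prKO effect on Pde4a moved by -0.24 ± 0.14 with age (adjusted p = 0.217), and by -0.41 (adjusted p = 0.0356) without both arrays high in Adam7. The srKO effect on Pde4a was 0.42 lower at 2 months than at 2 weeks (-0.42 ± 0.13, adjusted p = 0.0234), a call that ended without srKO replicate 1 of 2 weeks or of 2 months (0.0548 and 0.0572) and against WT replicates 1 to 4 alone (0.101). Of 6 spermatid markers 4 were lower in srKO at 2 months, where 25.4% of all genes tested passed. In prKO 5 of 6 were lower and 1 was higher, where 48.4% passed. The part of these markers in the Pde4a values was not tested.

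Pde8a and Pde8b encode high-affinity cAMP-specific enzymes. Pde8b stood out at 2 months in prKO, where the arrays read 7.89, 6.91 and 6.56 against 6.12 to 6.62 in WT, 6.25, 6.30, 6.22 and 6.41 in srKO, and 6.39, 6.31, 6.45 and 6.13 in lrKO. Of the 3 prKO arrays 2 were above all WT arrays and the third was within their range. The difference from WT was 0.77 ± 0.18 (1.71-fold, adjusted p = 0.0012), and 0.39 (adjusted p = 0.011) without prKO replicate 1, the prKO array with the highest Pde8b and the highest Adam7. prKO exceeded srKO by 0.83 ± 0.20 (adjusted p = 0.00545), or 0.44 (adjusted p = 0.016) without replicate 1, a call that ended when only these 7 arrays were fitted (0.102). At 2 weeks Pde8b in prKO was between 7.75 and 7.89, within or just below the WT range of 7.76 to 8.35, so the prKO effect was higher at 2 months by 0.96 ± 0.21 (adjusted p = 4.78e-04), or by 0.57 (adjusted p = 0.00638) without replicate 1.

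Pde8a at 2 months ranged from 10.79 to 11.20 in WT and read 10.67, 10.92 and 10.37 in prKO, lower by 0.28 ± 0.10 (adjusted p = 0.019). The call rested on replicate 3 (without it -0.14, adjusted p = 0.257) and on WT replicates 5 to 8 (against replicates 1 to 4 alone -0.20, adjusted p = 0.14), and it did not pass in a fit of all 8 groups (0.101). prKO was below srKO by 0.42 ± 0.11 (adjusted p = 0.00869), or 0.28 without replicate 3 (-0.28, adjusted p = 0.0811), and the call also ended when only these 7 arrays (0.0965) or all 8 groups (0.052) were fitted. In srKO Pde8a read 11.12, 11.04, 11.08 and 11.03, a difference from WT of 0.13 ± 0.09 (adjusted p = 0.291).

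Pde7a encodes the other cAMP-specific enzyme of the PDE7 family and did not share the course of Pde7b. At 2 months it ranged from 7.87 to 8.09 in WT and read 7.79, 7.82 and 7.65 in prKO, all below WT. The prKO difference was -0.24 ± 0.08 (adjusted p = 0.0196); without replicate 3 it was -0.19 (adjusted p = 0.126), and against WT replicates 5 to 8 alone -0.18 (adjusted p = 0.134). At 2 weeks the differences were -0.17 ± 0.07 in prKO and 0.02 ± 0.07 in srKO, with arrays that overlapped WT.

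Pde3b, the isoform through which insulin lowers cAMP in fat and liver, differed little between lines at 2 months. At 2 weeks the srKO difference from WT was -0.30 ± 0.16 (adjusted p = 0.389), and -0.46 with array weights (adjusted p = 0.0326). In prKO it was 0.06 ± 0.16 at that age (adjusted p = 0.86). At 2 months WT ranged from 9.56 to 9.86, prKO read 9.75, 9.71 and 9.70, and srKO 10.08, 9.96, 9.82 and 9.77. The difference from WT was 0.00 ± 0.08 in prKO (adjusted p = 0.977) and 0.19 ± 0.08 in srKO (adjusted p = 0.0629). srKO exceeded lrKO by 0.27 ± 0.09 (adjusted p = 0.0228), a call that ended without srKO replicate 1 or 2, or lrKO replicate 1 or 3 (adjusted p from 0.0507 to 0.0859).

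Pde1c, a calmodulin-dependent enzyme, varied widely within groups, with an SD of 0.64 among the 8 WT arrays at 2 weeks. At 2 months WT ranged from 7.91 to 8.87, while prKO read 7.47, 8.49 and 7.01. The prKO difference was -0.72 ± 0.29 (adjusted p = 0.0445), which was -0.40 (adjusted p = 0.348) without replicate 3 and -1.14 (adjusted p = 0.0034) without replicate 2, and it also ended without WT replicate 1, 4, 5, 6 or 8 (adjusted p from 0.0601 to 0.0722) or prKO replicate 1 (0.137). Of the 5 tested spermatocyte markers 3 were lower in prKO at this age, where 48.4% of all genes tested passed. The mean departure of the 5 from WT lay between -0.50 and -0.20 on the prKO arrays and between -0.15 and 0.07 in WT. Their part in the Pde1c value was not tested.

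At 2 weeks 4 of these genes varied among WT arrays together with spermatocyte markers. The mean log2 intensity of 5 spermatocyte genes (Sycp1, Spo11, Piwil1, Ldhc and Hspa2) was 8.32, 8.24 and 8.44 in WT replicates 1, 4 and 5 and between 9.39 and 10.31 in the other 5. On those 3 arrays Pde3b read 8.62, 8.65 and 8.66, against 8.92 to 9.43 on the others, and Pde1c 5.68, 5.52 and 5.56, against 6.20 to 7.05. Pde8a read 8.68, 8.87 and 8.79 against 9.04 to 9.67. Pde8b ran the other way, with 8.09, 8.35 and 8.21 against 7.76 to 7.96. In all 4 genes the 2 sets of arrays did not overlap, although they belong to 1 group. The sets were drawn by the spermatocyte values, and how many of all genes separate them was not counted.

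The knockout groups took different places on this scale. The spermatocyte mean lay between 8.31 and 9.06 in prKO, between 7.85 and 8.38 in srKO replicates 1 to 3 with 9.74 in replicate 4, and between 9.82 and 10.30 in lrKO. Pde1c followed it in srKO, with 5.73, 5.53 and 5.00 in replicates 1 to 3 and 6.54 in replicate 4, and lay high in lrKO, with 6.61, 6.75, 6.38 and 7.01. In prKO the order was not the same, since replicate 4 had the highest Pde1c (6.13) at a spermatocyte mean of 8.46 and replicate 3 had 5.87 at 9.06. Pde8a did not follow it: all prKO arrays (9.27 to 9.45) and srKO arrays (9.16 to 9.48) lay above WT replicates 1, 4 and 5. Pde8b in prKO (7.75 to 7.89) lay below those WT arrays, and in srKO it read 7.85, 8.19, 8.22 and 7.81. Pde3b read 8.58, 8.70, 8.58 and 9.06 in srKO. In prKO it lay between 8.945 and 9.44, above WT replicates 1, 4 and 5, and in lrKO between 8.84 and 9.23. The 2-week differences of Pde1c from WT (-0.36 ± 0.29 in prKO, -0.60 ± 0.29 in srKO, and 0.38 ± 0.29 in lrKO with adjusted p = 0.694) are to be read beside these marker values, whose part was not tested.

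**Figure D3:**
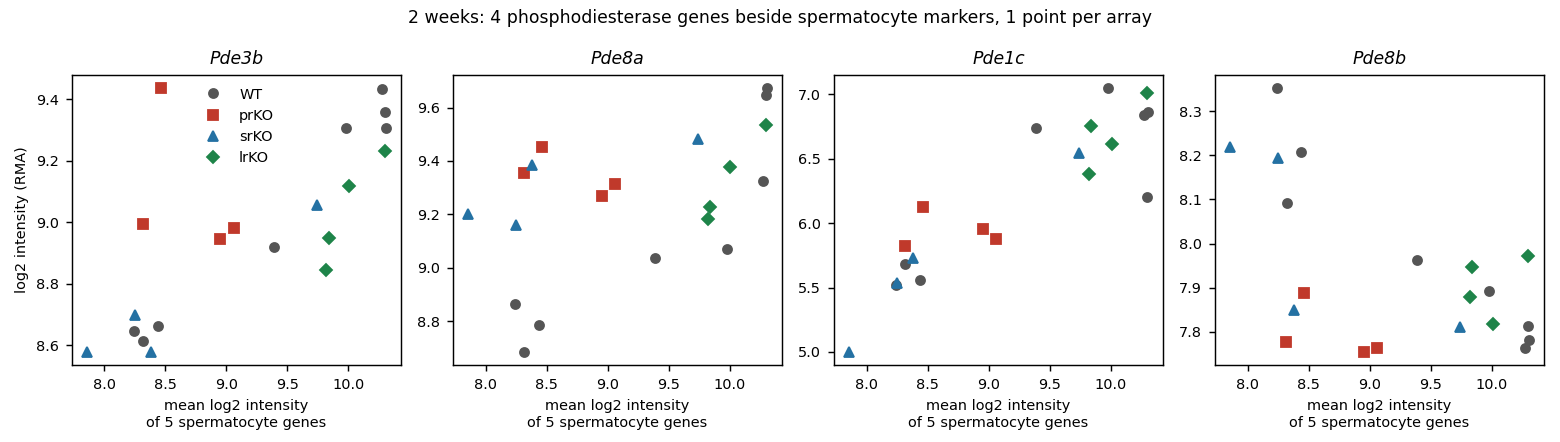
Log2 intensity of Pde3b, Pde8a, Pde1c and Pde8b (vertical axes) against the mean log2 intensity of 5 spermatocyte genes (horizontal axis), 1 point per 2-week array, with WT as circles, prKO as squares, srKO as triangles and lrKO as diamonds. WT arrays form a set of 3 near 8.3 and a set of 5 between 9.39 and 10.31, and Pde8b is the 1 gene of the 4 that is higher in the set of 3.

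Counted together, 4 of the 10 genes passed the threshold in prKO against WT at 2 weeks, all higher (Pde7b, Pde10a, Pde4d and Pde4b), where 10.5% of all genes tested passed, and 2 passed in srKO (Pde7b and Pde10a), where 0.873% did. Those contrasts were used in choosing the genes, so nothing is read from the counts. Their median log2 change was 0.13 in prKO and 0.14 in srKO, against -0.01 and 0.01 over all genes. In lrKO 0 of 10 passed at 2 weeks (0.1% of all genes) and 0 of 10 at 2 months (0.184%) in limma, also with a trended and robust prior, and 0 had an unadjusted p under 0.05 at either age. At 2 months 7 of 10 passed in prKO, 4 higher and 3 lower, against 48.4% of all genes, and 3 in srKO, 2 higher and 1 lower, against 25.4%. So at 2 months many of all genes passed as well, and the medians of the 10 (0.05 in prKO and 0.03 in srKO) were close to the medians of all genes (0.02 and 0.03). These comparisons at an age share their WT arrays.

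Between lines, prKO differed from srKO in 3 of 10 genes at 2 weeks, all higher, where 11.8% of all genes passed, and in 6 of 10 at 2 months, 4 higher and 2 lower, where 25.6% did. Fitted on the prKO and srKO arrays alone, 2 of 10 passed at 2 months. prKO differed from lrKO in 4 genes at 2 weeks (background 16.4%) and in 4 at 2 months (45.6%), all higher, namely Pde7b, Pde4b and Pde4d at both ages, with Pde10a at 2 weeks and Pde8b at 2 months. srKO differed from lrKO in Pde7b and Pde10a at 2 weeks (background 1.95%) and in Pde7b, Pde10a and Pde3b at 2 months (26.7%). The effect of genotype changed with age in 2 of 10 genes in prKO (28.2% of all genes), 2 in srKO (17.2%) and, in limma, 0 in lrKO (0.1%; 0 at an unadjusted p under 0.05). The 2-week prKO and srKO values that chose Pde7b and Pde10a enter every 2-week count between lines and the counts of the prKO and srKO change with age, so nothing is read from those counts.

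Markers of other cells also differed in the lines in which Pde7b was high. At 2 weeks 4 of 5 tested Leydig cell markers were higher in prKO, with a mean departure from WT between 1.83 and 2.41 on its 4 arrays, while 0 of 5 passed in srKO in limma (1 at an unadjusted p under 0.05; -0.02 to 0.38) and WT spanned -0.58 to 0.45. The Pde7b values of these srKO arrays, all above WT, helped to choose the gene. Of 3 tested adrenal cortex markers 2 were higher in prKO, and Cyp21a1, an adrenal steroid hydroxylase, lay between 7.77 and 9.83 in prKO, between 4.49 and 4.60 in srKO and between 4.26 and 4.61 in WT. Of 8 Sertoli markers 2 were lower in prKO and 0 passed in srKO in limma (1 at an unadjusted p under 0.05). At this age 10.5% of all genes tested passed in prKO and 0.873% in srKO. At 2 months 3 of 5 Leydig markers were higher in both prKO and srKO, and endothelial markers were higher in 4 of 4 and 3 of 4. Sertoli markers went both ways, with 4 of 8 higher and 2 lower in prKO, and 2 higher and 2 lower in srKO. Of all genes tested 48.4% passed in prKO and 25.4% in srKO at 2 months. Cyp21a1 then lay between 7.08 and 8.46 in prKO, 5.92 and 7.34 in srKO and 5.44 and 6.47 in lrKO. All of these were above WT (4.27 to 4.73). In lrKO 1 of 3 adrenal cortex markers was higher and 1 of 5 Leydig markers lower at 2 months, where 0.184% of all genes tested passed. The part of these cells in the phosphodiesterase values was not tested.

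Of 14 further phosphodiesterase genes, which include cGMP-specific enzymes and retinal PDE6 subunits, 11 were tested. Against WT at 2 weeks 10.5% of all genes tested passed in prKO, 0.873% in srKO and 0.1% in lrKO. At 2 months these shares were 48.4%, 25.4% and 0.184%. In prKO at 2 weeks 3 were higher: Pde3a, a cGMP-inhibited enzyme known from oocytes and the heart, by 0.98 ± 0.19 (adjusted p = 0.00164), Pde1a by 0.70 ± 0.17 (0.0124) and Pde2a, a cGMP-stimulated enzyme, by 0.33 ± 0.10 (0.0336). In srKO and lrKO 0 of 11 passed at that age in limma (1 each at an unadjusted p under 0.05). The calls of Pde1a and Pde2a ended against WT replicates 1 to 4 alone (0.51 and 0.25, adjusted p = 0.173 and 0.317) and without prKO replicate 4 (0.0639 and 0.145), and that of Pde2a also without prKO replicate 1 or WT replicate 3, 5, 7 or 8 (0.0541 to 0.153). Pde3a in srKO lay between 6.137 and 6.66, and overlapped the WT range of 6.139 to 7.23, while prKO lay between 6.95 and 8.08. At 2 months prKO had 3 of 11 higher and 1 lower: Pde5a, the cGMP-specific enzyme of smooth muscle, by 1.19 ± 0.16 (adjusted p = 5.91e-06), Pde3a by 1.01 ± 0.16 (3.64e-05), Pde9a by 0.30 ± 0.10 (0.0231), and Pde1a with -0.75 ± 0.13 (1.16e-04). In srKO Pde5a was higher by 0.49 ± 0.14 (adjusted p = 0.0159) and Pde1a was at -0.71 ± 0.12 (1.7e-04). In lrKO 0 of 11 passed (1 at an unadjusted p under 0.05, limma). The Pde9a call ended without prKO replicate 1 or 3 (adjusted p = 0.0591 and 0.0689), and the srKO call of Pde5a without srKO replicate 2 (0.30, adjusted p = 0.111) or with WT reduced to replicates 1 to 4 (0.125). Of the 11 genes 4 passed in srKO without srKO replicate 1, and 1 without replicate 2.

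The prKO effect on Pde1a was 0.70 at 2 weeks, a call that other settings ended, and -0.75 at 2 months, and the effects differed between ages (-1.45 ± 0.23, adjusted p = 9.21e-06). Its prKO arrays lay between 6.84 and 7.32 at 2 weeks against 5.89 to 7.20 in WT, and between 7.98 and 8.74 at 2 months against 8.87 to 9.35 in WT, where Pde1a was higher than at 2 weeks by 2.85 ± 0.13 (adjusted p = 2.7e-21). At 2 months smooth muscle and endothelial genes were higher on the prKO arrays too: the mean departure of peritubular myoid markers lay between 0.34 and 1.01, against -0.16 to 0.47 in WT, and that of endothelial markers between 0.79 and 1.82, against -0.16 to 0.18. Their part in the Pde5a and Pde3a values was not tested.

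**Figure D4:**
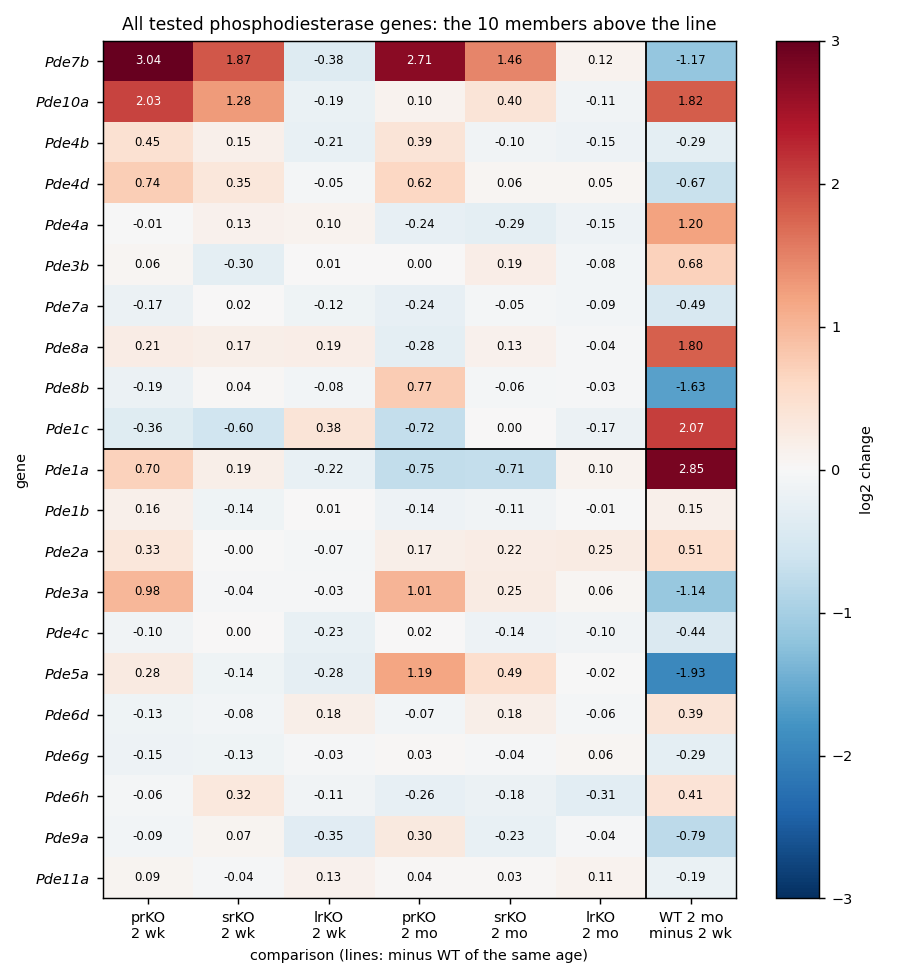
Log2 change (colour, with the value written in each cell) of the 10 genes above the black line and 11 further phosphodiesterase genes below it, in 6 comparisons of a line with WT of its age and in WT between ages. Pde3a rises in prKO at both ages (0.98 and 1.01), and Pde1a shows 2.85 between the ages in WT.

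The rest of the cAMP pathway was listed as 44 genes, of which 40 were tested. These were genes of cyclases, G proteins, PKA subunits and inhibitors, anchoring proteins, cAMP-binding proteins and the FSH receptor. The LH receptor gene Lhcgr was on the list but was not measured, so nothing is said of it. At 2 weeks 4 were higher and 4 lower in prKO, where 10.5% of all genes tested passed. The largest changes were in Prkar2b, a type II regulatory subunit, by 0.84 ± 0.12 (adjusted p = 6.42e-05), Prkar1a itself at -0.78 ± 0.07 (4.52e-07), the FSH receptor gene Fshr at -0.69 ± 0.12 (4.42e-04) and the PKA inhibitor gene Pkia at 0.61 ± 0.15 (0.0129). In srKO 2 passed, Prkar2b at 0.78 ± 0.12 (adjusted p = 0.00234) and Prkar1a at -0.48 ± 0.07 (0.00219). The median over the 40 genes was 0.02 in both lines. The Pkia call ended without prKO replicate 4 (0.43, adjusted p = 0.0777) and against WT replicates 1 to 4 alone (0.45, adjusted p = 0.192), where 3 of 40 genes passed, against 17 with WT replicates 5 to 8 alone. Without WT replicate 4, 13 of 40 passed, and without prKO replicate 4, 5 did. In lrKO 0 of 40 passed at either age in limma (3 and 4 at an unadjusted p under 0.05).

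At 2 months 18 of 40 pathway genes were higher and 11 lower in prKO, and 8 were higher and 10 lower in srKO, where 48.4% and 25.4% of all genes tested passed. In prKO the largest were Prkar2b at 2.19 ± 0.12 (adjusted p = 3.18e-10), Prkar2a at -1.65 ± 0.26 (3.8e-05), Pkia at 1.47 ± 0.15 (2.11e-07) and Akap4, an anchoring protein of the sperm tail, at -1.25 ± 0.12 (1.89e-07). In srKO they were Prkar2a at -2.31 ± 0.24 (9.82e-07), Prkar2b at 1.24 ± 0.11 (1.56e-07), Akap4 at -1.16 ± 0.11 (4.82e-07) and Fshr at -1.09 ± 0.12 (2.36e-06). Between ages in WT 11 of the 40 rose and 25 fell. Spermatid markers were lower on average in both lines at 2 months. Their mean departures lay between -1.14 and -0.36 in prKO and between -1.85 and -0.69 in srKO, against -0.12 to 0.10 in WT. Their part in the falls of Akap4 and Prkar2a was not tested.

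Likeness of pattern was taken across the 39 arrays, each centred on the WT mean of its age, with genes of some name classes passed over (listed below). Among the rest, the genes most like Pde7b were Prkca, a protein kinase C gene (Pearson r = 0.94), and Sorl1, a sorting receptor gene (0.91). Next came the chemokine receptor gene Cxcr4 (0.91) and Hs3st1, a heparan sulfotransferase gene (0.91). For Pde10a they were Rwdd4a (0.86), Dct, a melanin synthesis gene (0.80), Cxcr4 (0.79) and Fam222a (0.79). Among the 10 genes Pde7b was most like Pde4d (0.86), Pde10a (0.77) and Pde4b (0.75), and Pde7a was at -0.37. These coefficients describe the arrays, which share genotypes within a group, and carry no test.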

How the data were processed

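Testis RNA from 39 mice was measured on Affymetrix arrays. The authors deposited log2 intensities per probe set, normalized by RMA per the submitters' processing notes; no source used here gives its version or settings or the array build, and no further normalization was applied. The array medians lay between 5.81 and 6.02. Groups came from the sample titles. Of 41345 probe sets, 23521 carry 1 gene symbol (22180 genes); Entrez identifiers matched 23328 of them to RefSeq, with 0 symbols changed. For genes with several probe sets (Pde7a among the 10) the one with the highest mean was used. Genes were tested where a group mean exceeded the 25th percentile of all values (4.62), 19007 in all. limma 3.58.1 in R 4.3.3 fitted the 4 genotypes at each age, and all 8 groups for contrasts between ages, with two-sided tests and Benjamini-Hochberg adjustment over all genes tested (threshold 0.05). The fits were tested on simulated data. The members and gene lists were chosen with earlier results of these data known. All 10 members are described. Of the other lists, up to 4 genes with the largest passing change per comparison with WT are named. For likeness the 4 genes with the highest r are named among those left after some name classes were passed over. Those classes were model and clone names, micro RNA and small nucleolar genes, and olfactory and vomeronasal receptor genes. The values of Pde1a between ages were added after they were seen. The number of arrays limits the precision. Alternatives covered filters, normalization, array weights, probe set choice, the samples fitted, a replicate block, each set of 4 WT replicates and leaving out each array; leaving out the arrays high in Adam7 was chosen after seeing the data.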

Additional observations from a re-analysis of the deposited data

Results flagged for a closer look

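The prKO effect on Pde10a differed between the ages by -1.93 and the srKO effect by -0.89, both picked out by the interaction term in limma. They contain the 2-week differences that helped to choose the gene, so no p-value is given. The prKO effect on Pde8b differed by 0.96 (adjusted p = 4.78e-04) and the srKO effect on Pde4a by -0.42 (adjusted p = 0.0234).

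Single arrays stood apart in 2 of 70 sets, each being 1 gene in 1 group of 4 or 8 arrays. The measure was the gap to the nearest array relative to the range, and chance gives about 5 percent. The prKO group of 2 months, with 3 arrays, was too small for this check. Pde4d in lrKO replicate 1 at 2 months was 6.00, with the nearest array at 5.76. Pde3b in prKO replicate 4 at 2 weeks was 9.44, with the nearest at 8.99.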

How the results depend on the processing

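Of the member values under the alternatives, 5645 kept their side of the threshold, 72 lost the call, 63 gained one and 0 reversed a called direction. Values that passed under neither setting are among the 5645 even where their sign changed. Of 578 counts of called members, 13 moved by over 1.5 times. With array weights 5 members passed in srKO against WT at 2 weeks (2 as reported), 5 in srKO against lrKO at 2 weeks (2 as reported) and 4 in the change of the srKO effect with age (2 as reported). Fitting only the groups compared gave 4 for srKO against lrKO at 2 weeks and 2 for prKO against srKO at 2 months (6 as reported), and fitting all 8 groups gave 4 for srKO against lrKO at 2 weeks. Against WT replicates 1 to 4 alone, 2 passed in lrKO at 2 weeks (Pde8a and Pde4b; 0 as reported) and 1 in the srKO change with age, which was 4 against WT replicates 5 to 8. Leaving out 1 array gave 1 to 3 members for the srKO change with age (1 without srKO replicate 1 of either age) and, for prKO against WT at 2 months, 4 to 8 members, with 4 without prKO replicate 3. The causes were not tested.

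Deviations of same-numbered arrays from their group means had correlations from -0.62 to 0.44 (median -0.04) at 2 weeks and -0.28 to 0.21 at 2 months. The arrays were fitted as unpaired, but such values cannot exclude a litter or batch shared by some arrays. A fit with the replicate block gave 1 member in lrKO against WT at 2 weeks (Pde8a, 0.42, adjusted p = 0.0496; 0 as reported) and put Pde4b in prKO at 2 weeks at 0.28.

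Of the other named phosphodiesterase and pathway genes, 90 values lost the call, 20 gained one and 0 reversed a called direction. Of 790 counts of these lists, 28 moved by over 1.5 times.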
